A study of Homo sapiens and Homo sapiens
Mus musculus and Mus musculus with 9 samples.

Results

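The 9 genes described here are NFE2L2, which encodes the transcription factor NRF2, and 8 genes that NRF2 is known to switch on: NQO1, HMOX1, GCLM, GCLC, TXNRD1, SRXN1, SLC7A11 and FTH1. They were taken by gene symbol alone from the 41713 human genes of the deposited table, and all 9 were found with a value in each of the 3 read-assignment pipelines. The study mixed C4-2B cells, an established human prostate cancer line that spreads to bone in mice, with MC3T3-E1 cells, an established mouse osteoblast line, and asked how contact with osteoblasts changes the cancer cells. The RNA-Seq covered 3 libraries of C4-2B cells cultured alone and 3 libraries of the mixed co-culture at 1 C4-2B cell to 30 MC3T3-E1 cells, while the 3 libraries of MC3T3-E1 cells by themselves were not analysed here. The labels give both lines as wild type (WT), name no agent and put every culture in alpha-MEM with 10% FBS. By the study's methods, the C4-2B cells used in co-cultures carried a lentiviral GFP label, and C4-2B cells were otherwise grown in RPMI medium.

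The values used for each gene were mean normalised counts, that is, read counts divided by a size factor per library and averaged by the authors over both groups. Such a mean does not tell C4-2B cells alone from the co-culture, so no comparison of these groups, no spread between replicates and no test is given for any gene below. What the data show is how high each gene stood in these human reads and how far that level depended on the way human and mouse reads were told apart. Xenome sorts reads by species before alignment, XenofilteR compares the alignments to both genomes, and Kallisto assigns reads to the transcripts of both species together. The 3 pipelines read the same libraries and are not replicates.

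NRF2 is held in the cytoplasm and marked for degradation by KEAP1, whose reactive cysteines sense oxidants and electrophiles. When KEAP1 is modified, NRF2 accumulates, pairs with small MAF proteins and binds antioxidant response elements near its target genes. Those genes supply cystine and glutathione, reduce thioredoxin and peroxiredoxins, break down heme, store iron and detoxify quinones, and prostate cancer cells use them to limit oxidative damage.

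Antioxidant response elements hold a core that can be written TGACNNNGC, with N for any base. RefSeq promoter windows (GRCh38.p14, 250 bases before to 50 after a start site) were on hand for 6 of the 9 genes, namely NFE2L2, TXNRD1, GCLM, GCLC, NQO1 and SRXN1. The 6 genes had 8 windows, since NFE2L2 and TXNRD1 have a pair each. The core letters occurred on either strand in 3 of these 8 windows, belonging to GCLM and TXNRD1, and in 13.3% of all 35116 windows. Sequence outside the windows was not searched, so a window without the letters does not show that its gene lacks an element. The 4 matches are shown because they are the letters through which these genes are usually discussed. Each is given along the strand of its gene with the core in capitals:
GCLM, chr1:93909446-93909474, minus strand: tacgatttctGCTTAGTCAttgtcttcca
TXNRD1, chr12:104215670-104215698, plus strand: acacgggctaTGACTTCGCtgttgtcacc
TXNRD1, chr12:104215761-104215789, plus strand: gcgtccttcgGCTCCGTCAgttcccacag
TXNRD1, chr12:104286920-104286948, plus strand: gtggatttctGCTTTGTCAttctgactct

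The GCLM match began 34 bases before its start site and read as the reverse complement of the core. The related letters TGAGNNNGC, which differ from the core at the last of its first 4 letters, occurred in 4 of the 8 windows (of GCLM, NFE2L2, TXNRD1 and NQO1) and in 18.3% of all windows. None of these matches is a measured binding site.

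The genes stood at very different levels in these human reads. Compared per kb of exon (all exon bases of a gene, GENCODE release 44), the mean count of the 9 genes had a median of 599 per kb with Xenome, beside 281 per kb for the 11648 protein-coding genes whose mean count reached 50. Of the 9 genes, 5 lay above that median and 4 below it. FTH1 stood highest at 10152 per kb and SRXN1 lowest at 139 per kb, a 72.9-fold range. With Kallisto the median of the 9 genes was 954 per kb, beside 279 per kb for protein-coding genes, and 6 of the 9 lay above. The range with Kallisto was 167-fold, from FTH1 at 26739 per kb to HMOX1 at 160 per kb. Together the 9 genes held 0.155% of all human counts under Xenome, 0.153% under XenofilteR and 0.228% under Kallisto.

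NFE2L2 itself (ENSG00000116044, chr2:177227595-177392697 in GRCh38, minus strand) had a mean count of 3633 under Xenome, 3639 under XenofilteR and 3737 under Kallisto. The 95% interval from read counting alone, taken as if the level were equal in all 6 libraries, ran from 3547 to 3719 with Xenome. Per kb of exon NFE2L2 reached 243, the 45.8th percentile of protein-coding genes, below 6 of its 8 target genes here. That place rests on 14975 exon bases in all its transcripts, against 5104 in the longest. NFE2L2 took place 5 of 9 per kb of the longest transcript and place 6 per kb of coding sequence, and by mean count alone it was at the 74.9th percentile. NRF2 is controlled mainly through its protein, which was not measured in these data.

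The glutathione genes come next. SLC7A11 (ENSG00000151012, chr4:138164097-138242349) is the cystine-importing subunit of the exchanger known as xCT, GCLC (ENSG00000001084, chr6:53497341-53616970) is the catalytic subunit of glutamate-cysteine ligase, the rate-limiting enzyme of glutathione synthesis, and GCLM (ENSG00000023909, chr1:93885199-93909456) is its modifier subunit. SLC7A11 had a mean count of 8677 with Xenome, 8681 with XenofilteR and 9205 with Kallisto, which is 900 per kb with Xenome and the 81.8th percentile. GCLM had 3250, 3340 and 3387 in the same order, or 599 per kb with Xenome. GCLC had 2212, 2210 and 2326, or 257 per kb, so that the modifier subunit stood above the catalytic subunit per kb of exon in each pipeline. That order also held per kb of coding sequence (3953 for GCLM and 1154 for GCLC with Xenome) and, by a smaller margin, per kb of the longest transcript (665 and 585). Counting error was small for both, at 1.27% of the mean for GCLM and 1.54% for GCLC.

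TXNRD1 and SRXN1 belong to the thioredoxin and peroxiredoxin arm. TXNRD1 (ENSG00000198431, chr12:104215779-104350307, plus strand), the cytosolic thioredoxin reductase, had mean counts of 21762, 21759 and 21972 in the same order. It reached 3243 per kb with Xenome, the 96.7th percentile, and its 3 values lay within 1% of each other. SRXN1 (ENSG00000271303, chr20:646615-653370, minus strand), sulfiredoxin, which repairs over-oxidised peroxiredoxins, had 352 with Xenome and 354 with XenofilteR but 5618 with Kallisto. Its place among protein-coding genes per kb of exon was the 31st percentile with Xenome and the 93.8th with Kallisto.

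NQO1 (ENSG00000181019, chr16:69706996-69726668, minus strand), the quinone reductase most often used as a readout of NRF2, had mean counts of 5119, 5138 and 5567. At 1723 per kb with Xenome it was the third highest of the 9 genes and stood at the 92.0th percentile. HMOX1 (ENSG00000100292, chr22:35380361-35394207, plus strand), the inducible heme oxygenase, was low in comparison, at 369.5, 369.4 and 369.2, or 160 per kb and the 34.2nd percentile. FTH1 (ENSG00000167996, chr11:61959718-61967634, minus strand), the heavy chain of the iron store ferritin, had 20345 with Xenome, 20390 with XenofilteR but 53585 with Kallisto, which put it at the 99.4th percentile per kb with Xenome and the 99.8th with Kallisto.

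**Figure D1:**
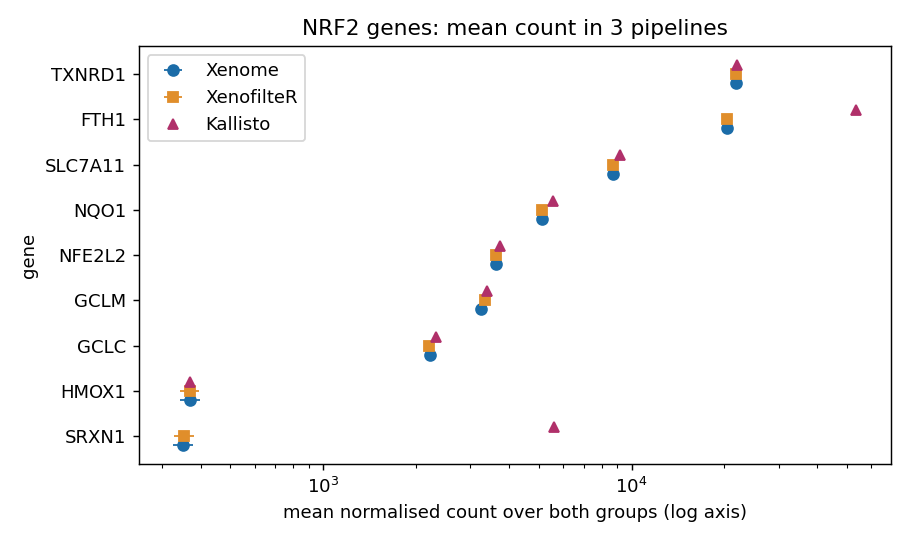
Mean normalised count over both groups (log axis) of the 9 genes with Xenome (circles), XenofilteR (squares) and Kallisto (triangles), with bars for the 95% interval from counting error with Xenome and XenofilteR, which are hidden by most markers. The 3 markers of a gene lie close together except for SRXN1, at 352 with Xenome and 5618 with Kallisto, and FTH1, at 20345 and 53585.

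The order of the genes per kb of exon with Xenome ran FTH1, TXNRD1, NQO1, SLC7A11, GCLM, GCLC, NFE2L2, HMOX1, SRXN1. With XenofilteR the order was the same. With Kallisto SRXN1 moved from last place to the third and the other 8 genes kept their order among themselves. Neighbours could be compared against counting error only, and some of their order depended on the measure of length. HMOX1 and SRXN1, at 160 and 139 per kb of exon with Xenome and with counting errors of 3.78% and 3.87%, changed places per kb of coding sequence (428 and 856). GCLC and NFE2L2 were also close per kb, at 257 and 243, and changed places per kb of coding sequence (1154 and 1860) or of the longest transcript (585 and 712).

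Counting error rests on depth, which differed widely. Solving the low mean counts for whole reads gave 3 deep libraries of 206 M to 251 M counts with Xenome and 3 shallow ones of 4.61 M to 18.1 M. These libraries were not matched to groups. The shallow libraries limited the precision, because a mean count moves by 1.53 with 1 read in the library of lowest depth and by 0.0281 with 1 read in that of highest depth. The table held the markers of its human line: 11 of 12 listed prostate epithelial genes were found, each with a Xenome mean of 4603 to 51038. Of 15 osteoblast genes 8 were below 10 and 5 reached 50, where 11657 of 19939 protein-coding genes reached 50. Among the genes below 10, SP7, ALPL, BGLAP and IBSP had means of 0.984, 0.103, 3.78 and 2.75. The matrix genes FN1 and COL1A1 had 40055 and 3384. The part of mouse reads in the means of the osteoblast genes was not tested. Another 5 of the 15 osteoblast genes, COL1A2, COL3A1, SPARC, POSTN and TWIST1, were over 1.5 times higher with XenofilteR than with Xenome. Of 14072 genes with a mean of at least 50 in both, 96.7% lay within 1.1-fold of the median ratio of XenofilteR to Xenome. Only 0.0924% lay over 2-fold above it.

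The question whether the pipelines gave these genes the same level was answered by ratios of means, each read against every gene that reached a mean of 50 in both pipelines. With XenofilteR 0 of the 9 genes lay over 2-fold above or below the median ratio to Xenome, where 0.0924% of 14072 genes lay above and 0.0569% below. The means of 8 genes differed from Xenome by at most 0.559%. GCLM was 2.79% higher with XenofilteR, a larger ratio than 93.2% of all genes had, and its XenofilteR mean of 3340 lay above the Xenome counting interval, which ended at 3331. Both means come from the same libraries, so this interval is no test of the difference.

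In coding sequence GCLM was also the member closest to its mouse counterpart. Over aligned bases, gaps left out, human and mouse coding sequences were 91.4% identical for GCLM, against 90.3% for FTH1, 88.5% for GCLC, 87.3% for SLC7A11, 86.6% for SRXN1, 86.3% for NQO1, 82.8% for HMOX1, 82.6% for NFE2L2 and 80.6% for TXNRD1. Of the 31-base sequences in the GCLM coding sequence, 7.04% occurred in that of mouse Gclm, and the longest shared run was 59 bases, longer than a 50-base read. It is shown because a single read from these bases carries no difference between the species, though its paired mate can lie outside them. It spans coding bases 394 to 452 within 1 exon:
GCLM, chr1:93896706-93896764, minus strand: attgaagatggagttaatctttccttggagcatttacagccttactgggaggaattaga
In NQO1 and HMOX1 the longest shared runs were 27 and 26 bases and no 31-base sequence was shared. GCLC and SLC7A11 also had runs longer than a read, of 56 and 52 bases, and their XenofilteR means differed from Xenome by -0.0885% and 0.0474%. Over whole transcripts and all mouse genes, NFE2L2 had the largest share of 31-base sequences found in mouse (3.73%, against 1.03% for GCLM), and its XenofilteR mean differed from Xenome by 0.153%. The part of shared sequence in the GCLM difference was not tested.

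With Kallisto 2 of the 9 genes, SRXN1 and FTH1, lay over 2-fold above the median ratio of 1.02, where 5.72% of 11593 genes did, and 0 lay over 2-fold below it, where 0.371% did. SRXN1 was 16.0 times higher with Kallisto than with Xenome, a larger ratio than 99.6% of all genes had. FTH1 was 2.63 times higher, above 95.9% of all genes. The other 7 genes had ratios from 0.999 (HMOX1) to 1.09 (NQO1), all within 1.1-fold of the median ratio, as were 70.1% of all genes. In share of the counts of the 9 genes, FTH1 went from 31% with Xenome to 50.7% with Kallisto, SRXN1 from 0.535% to 5.31% and TXNRD1 from 33.1% to 20.8%.

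Counting both strands, SRXN1 and FTH1 were the members with the largest share of exon sequence in common with other annotated genes. On the same strand SRXN1 shared 90.7%, NFE2L2 13.6%, GCLC 6.14% and FTH1 none. Of the 2528 exon bases of SRXN1, 2292 (90.7%) also belong to a readthrough gene on the same strand (ENSG00000270299), which shares the whole last exon of SRXN1 but for its final bases. That gene was listed at 33.5 with Xenome, 32.3 with XenofilteR but 246 with Kallisto. The 236 exon bases that SRXN1 does not share carried a Xenome mean of 352 if all its counted reads came from them, which is 1491 per kb, beside 2222 per kb for the whole gene with Kallisto. On that scale the ratio between the pipelines was 1.49 in place of 16.0. Where the counted reads lie within the gene is not known here, and the part of exon overlap in the difference was not tested, for SRXN1 or for any gene below.

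**Figure D2:**
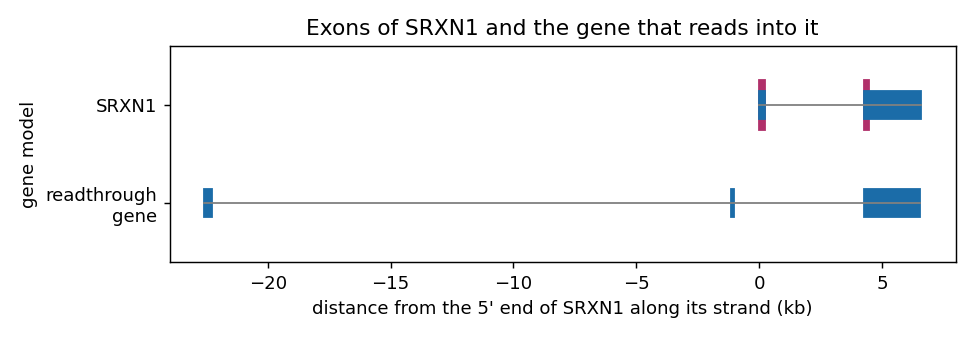
Exons (blue) of SRXN1 and of the readthrough gene on the same strand by distance in kb from the 5' end of SRXN1, with coding bases of SRXN1 as taller purple bars. The last exon, 2303 bases in SRXN1, is shared over 2292 bases, and the first exon of SRXN1, 225 bases, is not.

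FTH1 shares 1267 of its 2004 exon bases (63.2%) with BEST1 on the opposite strand, a chloride channel gene that was listed at 275, 277 and 341 in the 3 pipelines. The libraries were made with a stranded kit, and the strand setting of the authors' counting is not given in the sources used here. If all counted reads of FTH1 came from its 737 unshared bases, its Xenome mean would be 27605 per kb, beside 26739 per kb for the whole gene with Kallisto, a ratio of 0.969. NFE2L2 shares 38.4% of its exon bases with other genes, most of them with HNRNPA3 on the opposite strand (23.4%), and its ratio was 1.03. Over unshared bases its ratio moved away from 1, to 0.634, and that of NQO1 went from 1.09 to 0.877. NQO1 shares 19.4% of its exon bases, GCLC 9.68% (ratio 1.05) and SLC7A11 8.97% (1.06), while GCLM, HMOX1 and TXNRD1 share none.

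Overlap was set beside the ratio over all genes as a description. Among genes that share no exon base with another gene on either strand, the median ratio of Kallisto to Xenome was 1.01 and 2.35% of 5444 genes lay over 2-fold above the overall median. Among the 249 genes that share over 50% and up to 80%, as FTH1 does, the median ratio was 2.63 and 61.8% lay above. Among the 57 genes that share over 80%, as SRXN1 does, it was 5.05 and 77.2% lay above. Counted on the same strand alone, FTH1 falls among the 9505 genes that share nothing, with a median of 1.01 and 2.92% above, and SRXN1 among 36 genes with a median of 5.45 and 75% above. Sequence found in other human genes was counted on both strands and so includes the overlapping exons. It is therefore not a property separate from overlap, and it moved with the ratio in a like way. Of the 31-base sequences of FTH1, 63.6% occur in another human gene, and the 337 genes with over 50% and up to 80% had a median ratio of 2.51, with 60.5% above. Of those of SRXN1, 90.6% do, and the 109 genes with over 80% had a median of 4.96, with 76.1% above. Across 11531 genes the ratio rose with the shared percent with a Spearman's rho of 0.38, a description across genes that come from the same libraries and are not independent replicates.

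**Figure D3:**
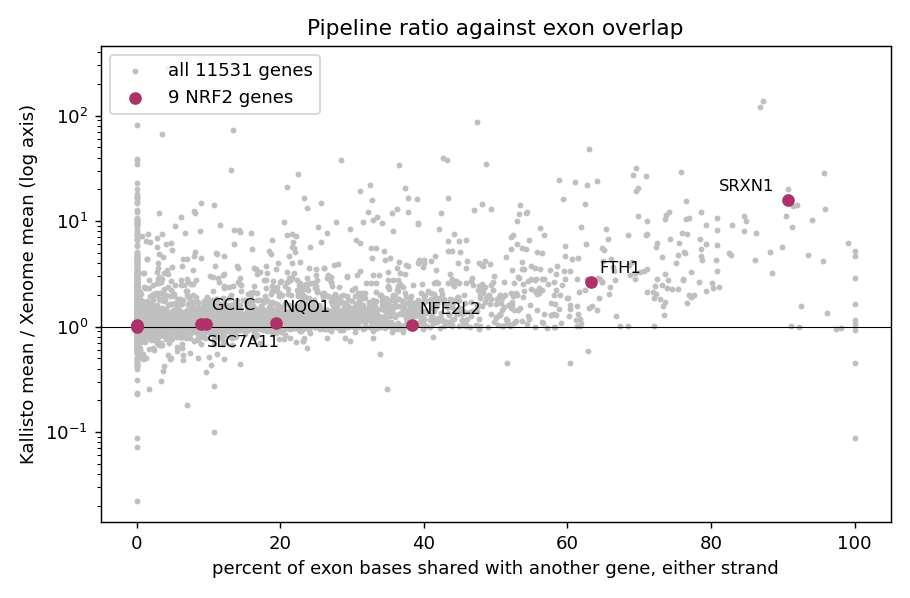
Ratio of the Kallisto mean to the Xenome mean (log axis) against the percent of exon bases shared with another gene on either strand, for 11531 genes (grey) and the 9 NRF2 genes (purple). SRXN1 (90.7% shared, ratio 16.0) and FTH1 (63.2%, 2.63) lie at the right with other genes of high overlap, and the other 7 genes lie along the line at 1.

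FTH1 also has many processed pseudogenes, copies of its mRNA scattered through the genome. The table listed 19 FTH1 pseudogenes with Xenome, 9 of them with a mean of at least 50, and 18 with XenofilteR, while 0 of them had a value with Kallisto. A missing Kallisto value was not particular to these copies. The antisense genes SLC7A11-AS1, GCLC-AS1 and CBR3-AS1 (711 with Xenome) had none either, so the missing values are not read as levels of 0. The Xenome means of the pseudogenes summed to 2208, which is 9.79% of the total for FTH1 and its pseudogenes, and the XenofilteR means to 2148. The highest were FTH1P8 at 506, FTH1P7 at 370 and FTH1P20 at 258. Adding the pseudogene counts to FTH1 gave 22553, and the Kallisto mean of FTH1 was 2.38 times that sum. Reads of FTH1 and of its copies are hard to tell apart, so that each of these values is uncertain, and reads counted for none of these genes are not in the sum. The part of the pseudogenes in the difference between the pipelines was not tested.

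The copies were 73.8% to 97.6% identical to the FTH1 coding sequence, and of the 503 stretches of 50 bases in that sequence, 391 (77.7%) occurred unchanged in at least 1 pseudogene. The first 60 coding bases of FTH1 are shown beside 4 copies, since they show how few bases distinguish a read. Capitals mark bases that differ from FTH1, and all are read 5′ to 3′ from GRCh38:
FTH1, chr11:61967366-61967425, minus strand: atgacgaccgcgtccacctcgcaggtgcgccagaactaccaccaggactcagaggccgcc
FTH1P7, chr13:22696515-22696574, minus strand: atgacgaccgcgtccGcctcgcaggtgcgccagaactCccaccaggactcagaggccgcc
FTH1P20, chr2:180873355-180873414, minus strand: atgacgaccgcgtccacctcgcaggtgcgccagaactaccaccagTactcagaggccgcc
FTH1P16, chr11:77734967-77735026, minus strand: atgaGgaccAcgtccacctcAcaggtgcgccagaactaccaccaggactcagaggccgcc
FTH1P3, chr2:27393308-27393367, minus strand: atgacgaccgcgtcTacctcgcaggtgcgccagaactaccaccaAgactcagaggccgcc

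In this window FTH1P20 differed from FTH1 at 1 base, FTH1P7 and FTH1P3 at 2 and FTH1P16 at 3. FTH1P16 and FTH1P3 were listed at 219 and 139 with Xenome. Among the other members, the antisense gene SLC7A11-AS1, which overlaps SLC7A11 on the other strand, was listed at 34.0 with Xenome and 34.1 with XenofilteR, and GCLC-AS1, antisense to GCLC, at 33.1 and 33.3.

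**Figure D4:**
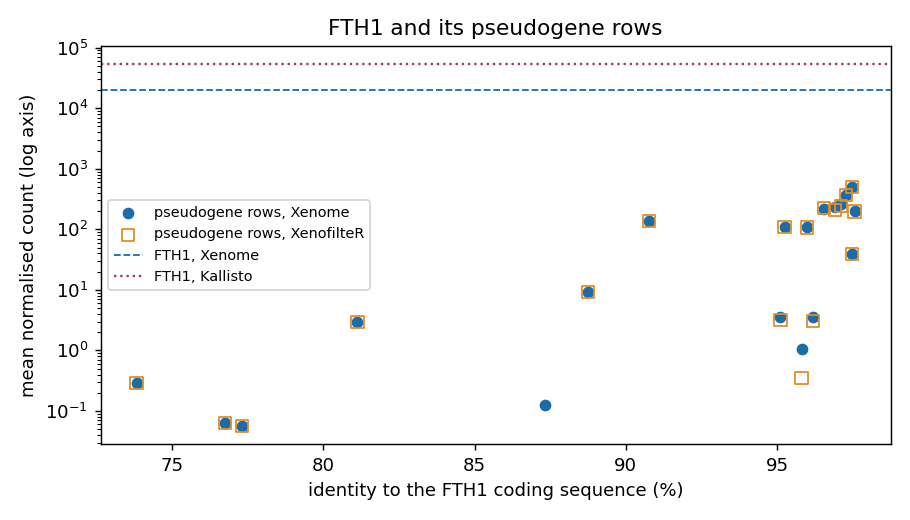
Mean normalised count (log axis) of the 19 FTH1 pseudogenes against their identity to the FTH1 coding sequence, with Xenome (circles) and XenofilteR (squares). The lines are FTH1 itself at 20345 with Xenome (dashed) and 53585 with Kallisto (dotted), and the copies with means of at least 50 are all over 90% identical, between 107 and 506.

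The rest of the pathway was described with a list of 80 other genes grouped by role. Of these, 79 had a Xenome mean, in 80 rows because GGT1 is listed under a pair of gene IDs, and GSTM1 had none. A mean of at least 50 was reached by 64 of these rows (80%), and 13 were below 10. Over the whole table, 11657 of 19939 protein-coding genes reached a Xenome mean of 50. With Kallisto 4 of the 63 rows compared lay over 2-fold above the median ratio and 0 below, beside the 5.72% and 0.371% of all genes, and 49 were within 1.1-fold. The 4 were ABCB6, a porphyrin transporter (717 with Xenome, ratio 6.58), GGT1, gamma-glutamyltransferase (146, 4.95), SOD2, the mitochondrial superoxide dismutase (1903, 3.07), and CBR3, a carbonyl reductase (278, 2.13). ABCB6 shares 54.6% of its exon bases with another gene on the same strand, GGT1 shares 56.5%, and CBR3 shares 71.1%, all of it with an antisense gene. No overlap value was computed for SOD2, whose gene ID was not matched in the annotation. The other GGT1 row, with a mean of 5.50 with Xenome and 3298 with Kallisto, was under the minimum.

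Of the 10 listed regulators of NRF2, 8 had a mean of at least 50, beside 11657 of 19939 protein-coding genes. KEAP1, named here after its values were seen, had 4662 with Xenome (1305 per kb). NFE2L1, a relative of NRF2, and SQSTM1, an adaptor that binds KEAP1, had the highest mean counts, 10695 and 7110 with Xenome, which is 1818 and 944 per kb. BACH2, a repressor at the same elements that is best known from lymphocytes, had the lowest, at 0.206 with Xenome against 85.3 with Kallisto.

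All 13 thioredoxin and peroxiredoxin genes and all 7 genes of NADPH supply, which feeds both reductases, had a mean of at least 50. Their medians were 2621 and 1563 per kb. By mean count the highest of the first role were the peroxiredoxins PRDX6 (8306 per kb) and PRDX1 (9908 per kb) and the lowest was SESN2, a stress-induced sestrin (324 per kb), though SESN1 was lower per kb, at 175. Of the second role IDH1, isocitrate dehydrogenase (3632 per kb), and TKT, transketolase (1563 per kb), had the highest mean counts and ME1, malic enzyme (1050 per kb), the lowest, while MTHFD2 was lowest per kb, at 659.

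The glutathione genes reached a mean of 50 in 14 of 21 rows, beside 11657 of 19939 protein-coding genes. GSR, glutathione reductase, and ABCC4, an exporter, had the highest mean counts (16578 and 9733), and GSTM4, a glutathione transferase, the lowest (0.334). Per kb GSR was also highest, at 4603, while ABCC4, at 1128, stood below GPX4 (4211), GPX1 (3736), SLC3A2 (1279) and MGST1 (1131). GSTP1, a transferase that is silenced in many prostate cancers and was named after its values were seen, was at 0.372 with both Xenome and XenofilteR and at 0.758 with Kallisto.

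Of the 13 genes of the quinone and carbonyl role, to which NQO1 belongs, 6 reached a mean of 50, beside 11657 of 19939 protein-coding genes. The other 7 were below 10. EPHX1, an epoxide hydrolase, and AKR1A1, an aldehyde reductase, stood highest at 7353 and 2073 per kb, and ALDH3A1, an aldehyde dehydrogenase, lowest with a mean count of 1.45. AKR1C1, AKR1C2 and AKR1C3, much used as NRF2 readouts in other epithelial lines and named after their values were seen, had means of 8.12, 8.07 and 7.90 with Xenome. Per kb of exon they stood at 0.926, 1.33 and 2.02 beside 1723 for NQO1, and with Kallisto the means were 14.1, 16.2 and 10.1. Reads of these close paralogs are hard to assign, so their values are uncertain.

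All 9 genes of heme and iron handling beside HMOX1 and FTH1 reached a mean of 50, where 11657 of 19939 protein-coding genes did. TFRC, the transferrin receptor that brings iron in, and FECH, the last enzyme of heme synthesis, had the highest mean counts (34285 and 9204), and SLC40A1, the iron exporter ferroportin, the lowest, at 74.1 (17.6 per kb). Per kb TFRC stood at 1973 and FECH at 827, below FTL, the ferritin light chain, at 5733. Of the 7 other antioxidant enzymes all reached 50. SOD1 and CAT had the highest mean counts with Xenome (8901 and 4527) and OSGIN1 the lowest (347). Per kb these genes stood at 4507, 1265 and 62.4, and SOD2 had no exon length to give a value per kb.

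**Figure D5:**
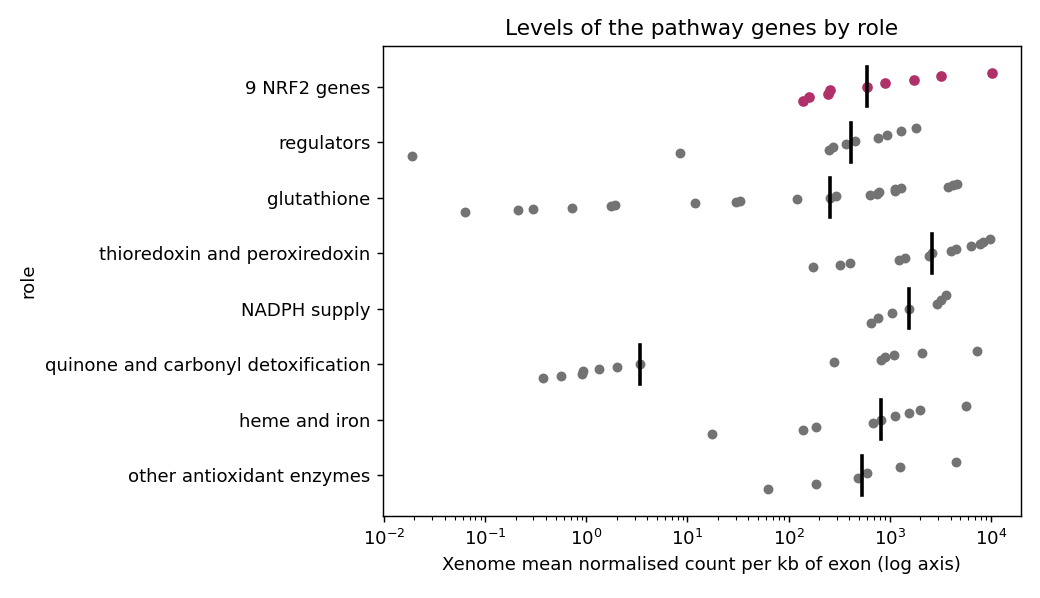
Xenome mean normalised count per kb of exon (log axis) of the 9 NRF2 genes (purple) and of the other pathway genes by role (grey), 1 point per row with an exon length (GGT1 has 2 rows, SOD2 is not drawn), with a black line at each median. The 9 genes have a median of 599 per kb, the thioredoxin and peroxiredoxin genes 2621, and the quinone and carbonyl genes 3.37.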

How the data were processed

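Total RNA was sequenced as paired 50-base reads from stranded mRNA libraries. The authors separated the species in 3 ways. Human reads were selected by Xenome and aligned to GRCh38 with HISAT2, or reads aligned to each genome were filtered by XenofilteR, with featureCounts as the counter in both, or Kallisto quantified both transcriptomes jointly. The authors compared co-culture with C4-2B alone with DESeq2. Versions are not given in the sources used here. The deposited table gives, per pipeline, the mean of the counts divided by size factors over both groups. Its fold changes, standard errors, statistics and p-values are the authors' comparison and were not used, so the edgeR test that had been planned for counts per library was not run. Of 41734 rows, 21 repeats were dropped.

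Members and lists were chosen with earlier results of these data known. Named by rule were the 9 members, their pseudogene and antisense rows and genes past 2-fold between pipelines. Per role, the 2 genes with the highest and the 1 with the lowest Xenome mean were also named. GPX4, GPX1, SLC3A2, MGST1, FTL, SESN1 and MTHFD2 were added for their values per kb. KEAP1, GSTP1 and AKR1C1 to AKR1C3 were added after their values were seen. Ratios used genes with a mean of at least 50 in both pipelines and were set against the median ratio. Exon overlap and 31-base sharing came from GENCODE releases 44 (human) and M21 (mouse). Reads per library were solved from low means, a step that recovered all 120 values of 20 simulated sets of libraries, and intervals (95%) cover counting error only. With Xenome, 6126 of 6126 means below 0.25, which hold reads of the 3 deep libraries alone, were whole within 1e-06. So were 2386 of 2386 means from 0.3 to 0.6, 635 of 647 from 1.1 to 1.3 and 599 of 608 from 1.5 to 1.7, where a read of each shallow library first appears. With Kallisto, whose counts are estimates, 524 of 1054 low means (49.7%) came out whole, and no interval is given. Alternatives were the pipeline, the minimum mean, the fold, the length measure and, added after seeing the data, unshared exon length. The work was done in python 3.11.15 with matplotlib 3.10.9, biopython 1.88, numba 0.67.0, pandas 2.3.3 and numpy 2.4.6.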

Additional observations from a re-analysis of the deposited data

How the results depend on the processing

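The median mean count of the 9 genes moved from 3633 (Xenome) and 3639 (XenofilteR) to 5567 (Kallisto). The median ratios to Xenome relative to all genes were 1.03 for Kallisto and 1.00 for XenofilteR, and stayed from 1.02 to 1.05 and at 1.00 as plain ratios, without a minimum mean and with a minimum of 500, which leaves out HMOX1 and SRXN1. The same number of genes, 2 for Kallisto and 0 for XenofilteR, lay past 1.5-fold as past 2-fold. The pathway rows above the minimum numbered 67 at a mean of 10 and 58 at 500. Per kb of unshared exon, an alternative chosen after seeing the data, SRXN1 took place 4 of 9 in place of 9. By mean count, HMOX1 went from the 18.6th percentile of protein-coding genes with a mean of at least 50 to the 46.8th without that minimum and the 74.4th among all listed genes, and SRXN1 from the 17.9th to the 46.3rd and the 74.1st, with smaller rises for the other 7 genes. No paired analysis was possible because the table holds means over all 6 libraries, and for the same reason no replicate could be left out. With Xenome, depth limits HMOX1 and SRXN1 most, with counting errors of 3.78% and 3.87% of the mean.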
